A study of Mus musculus with 6 samples.

Results

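Genes of the splicing machinery were examined by RNA sequencing at embryonic day 9.5 of mouse development, in the dissected second heart field region, whose progenitors add cells to the heart tube. The set was defined by gene symbol, and it was chosen with earlier results of these data known. It holds the SR proteins (Srsf), the heterogeneous nuclear ribonucleoproteins (Hnrnp) and the Sm and snRNP-specific proteins (Snrp). The SF3A and SF3B subunits of the U2 particle (Sf3a, Sf3b), the U2 auxiliary factors (U2af) and the numbered pre-mRNA processing factors (Prpf) complete it. The imprinted gene Snrpn was left out. In all, 67 of the 16832 genes in the deposited table were members, and all 67 passed the filter on low values, a mean of at least 10 normalized counts. They comprise 11 SR protein genes, 20 hnRNP genes, 11 Snrp genes, 9 SF3 genes, 3 U2AF genes and 13 Prpf genes.

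The GoF samples carried a Hoxb1 gain-of-function allele (Hoxb1GOF) and Mef2c-Cre, and the CTRL samples carried Mef2c-Cre alone, so Cre recombinase was present in both groups. Mef2c-Cre is active mainly in the anterior second heart field and its descendants, and such a dissection also holds other cells. Of the 3 samples listed for each group, 3 GoF libraries (replicates 1 to 3) and 2 CTRL libraries (replicates 2 and 3) were measured, while CTRL replicate 1 is not analysed here. Nothing in the labels ties a replicate to its own embryo or pool, so p-values cover the spread between these libraries, which may be technical. Values are normalized counts, the reads of a gene divided by 1 size factor per library.

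Introns are removed from pre-mRNA by the spliceosome, which assembles from small nuclear ribonucleoprotein particles (snRNPs) on each intron. U1 marks the upstream end of the intron, and U2AF and the SF3-containing U2 particle mark the branch point and downstream end. The U4, U5 and U6 particles, with several of the PRPF proteins, join before the catalytic centre forms. SR proteins mostly promote the use of nearby exons, hnRNPs often repress them, and many genes of both families restrain their own output through unproductive transcripts. The counts here are per gene, so the shares of productive and unproductive transcripts were not measured.

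Hoxb1 itself had 1021.3, 1003.0 and 1041.2 normalized counts in GoF, against 751.6 and 610.2 in CTRL, with every GoF value above both controls (log2 fold change 0.59, SE 0.12, limma adjusted p = 0.0147; 0.251 with a trend on GC content removed and 0.0597 without GoF replicate 1). Depth was 34260116 to 44191917 reads in GoF and 34342568 to 44384354 in CTRL, of which mitochondrial genes took 35.7 to 37.4% in GoF and 44.4 to 50.7% in CTRL. Of 9 second heart field markers 8 were in the table, summing to 9953 to 10640 in GoF and 8912 to 10005 in CTRL in normalized counts, with 3 called higher and 1 lower. Without Mef2c the sums were 4974 to 5434 in GoF and 3677 to 4472 in CTRL. Of the 8 markers, Hoxb1 included, 4 were higher in every GoF library than in both controls and 2 were lower.

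Several marker lists of other cell types held genes that went both ways, and some of their sums rest largely on 1 gene. The 6 cardiomyocyte markers (of 7) summed to 182698 to 231786 in GoF and 281858 to 389690 in CTRL, but to 61205 to 61844 in GoF and 52792 to 61601 in CTRL without Ttn, and of them 1 was called higher and 1 lower. Myl7, Tnnt2 and Actc1 were higher in every GoF library than in both controls, Ttn and Myh7 were lower in every GoF library, and Myh6 overlapped. The 5 erythroid markers summed to 13737 to 17518 in GoF and 6888 to 10910 in CTRL and, without Hba-x, to 2465 to 3040 in GoF and 2064 to 2243 in CTRL, with 2 called higher and 0 lower. Alas2 among them was lower in every GoF library, and Hbb-bh1 and Hba-a1 overlapped. The 5 endothelial markers summed to 6338 to 6449 in GoF and 5241 to 5976 in CTRL and, without Cdh5, to 4018 to 4061 in GoF and 3816 to 4287 in CTRL, which overlap, with 1 called higher and 1 lower. The 6 neural tube markers summed to 9203 to 9651 in GoF and 10868 to 11218 in CTRL, with 1 called higher and 1 lower. Without Nes the sums were 3973 to 4247 in GoF and 3962 to 4698 in CTRL, which overlap. Of the 6, Sox2, Olig2 and Nes were lower in every GoF library than in both controls, Tubb3 was higher and 2 overlapped. The 4 neural crest markers summed to 1875 to 2065 in GoF and 1070 to 1676 in CTRL, with 1 called higher and 0 lower. Without Tfap2a the sums were 590 to 652 in GoF and 256 to 554 in CTRL. Of the 4, 3 were higher in every GoF library than in both controls and 1 overlapped. The sums of 6 endoderm markers, 3964 to 4150 in GoF and 3085 to 4889 in CTRL, and of 3 liver bud markers (of 5), 260 to 362 in GoF and 9 to 583 in CTRL, overlapped between groups. Of the endoderm markers 2 were called higher and 0 lower, and 3 were higher in every GoF library than in both controls. Among the liver bud markers 0 were called in either direction. The part of these differences in the members' values was not tested, and in bulk samples fewer cells of a type and less RNA per cell cannot be told apart.

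Of the 67 members, 11 rose in GoF, 11 fell and 45 did not pass (limma, Benjamini-Hochberg adjusted p under 0.05), which is 32.8% called, against 23.2% of all 16794 genes tested. Among all genes 12.2% were called higher and 10.9% lower. The median log2 fold change of the members was 0.01, beside -0.01 over all genes tested. Quantile normalization gave 16 members higher and 7 lower, beside 1875 higher and 1650 lower of all 16794 genes tested. By kind, 4 of 9 SF3 genes rose and 0 fell, 2 of 20 hnRNP genes rose and 5 fell, and 0 of 11 SR protein genes passed in either direction by limma or edgeR (2 at an unadjusted p under 0.05 in limma, and 1 called by DESeq2). After removal of a trend on the GC content of the longest transcript, these counts were 2 higher and 0 lower for SF3. They were 4 higher and 2 lower for hnRNP and 2 higher and 0 lower for SR genes. The hnRNP median log2 fold change was then 0.13, against -0.11 before that removal. The authors' deposited table, at the same threshold, calls 25 members (12 higher, 13 lower), beside 26.4% of all its genes. Of the 22 calls, 9 held without each of the 5 libraries in turn and 13 were lost without at least 1 of them. Without either CTRL library the group is 1 library, which is then assumed to vary as the GoF libraries do, so those fits are a weak check. There were 9 calls without GoF replicate 1 and 12 without GoF replicate 2.

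Transcript base composition moved with these calls, and its part in them was not tested apart from removing the trend, which also takes away real differences that go with GC content. The 11 members that rose had a median GC content of 53.9% in the longest annotated transcript, and the 11 that fell had 40.9%. When a smooth trend on GC content was subtracted from each library, 10 members were called higher and 2 lower, beside 6.44% of all 16266 genes in that fit (3.11% higher and 3.33% lower). Of the original 22 calls, 5 passed again in the same direction, Snrpa, Sf3b2 and Sf3b3 among the higher and Hnrnpa0 and Hnrnpm among the lower. These 5 also passed when the GC content of the longest protein-coding transcript was used. By that measure 10 of the 22 calls passed again, 4 higher and 6 lower. Sf3a2 was added among the higher, and Hnrnpa2b1, Hnrnpa3, Prpf38b and Snrpa1 among the lower. In that fit 10 of all members were higher and 7 lower, beside 524 and 659 of 12770 genes. For 19 members the longest transcript is not protein-coding. Snrpa and Hnrnpa0 passed in each of 20 alternative settings.

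The promoter windows of Snrpa, Sf3b2, Sf3b3, Hnrnpm and Hnrnpa0 are shown. The calls of these 5 genes held with and without the trend on the longest transcript's GC content. Each runs from 250 bases before to 50 bases after a start site in RefSeq (build GRCm38.p6, the coordinates of mm10), read along the gene from 5′ to 3′, and all 5 lie on the minus strand. Capitals mark matches on either strand to any of the motifs searched. These were CCGGAAG for ETS factors, GCGCATGC for NRF1, the CCAAT box, the TATA box written as TATAAA, and TGATNNAT, a composite site bound by HOX and PBX proteins. The Snrpa window is chr7:27196222-27196521, the Sf3b2 window chr19:5295406-5295705, the Sf3b3 window chr8:110846754-110847053, the Hnrnpm window chr17:33685409-33685708 and the Hnrnpa0 window chr13:58128507-58128806.
Snrpa: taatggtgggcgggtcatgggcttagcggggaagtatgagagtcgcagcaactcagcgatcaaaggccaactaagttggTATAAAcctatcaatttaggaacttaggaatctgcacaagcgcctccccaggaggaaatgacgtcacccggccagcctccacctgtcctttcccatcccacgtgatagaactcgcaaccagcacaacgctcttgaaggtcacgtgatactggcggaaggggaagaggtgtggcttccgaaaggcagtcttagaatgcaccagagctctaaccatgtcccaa
Sf3b2: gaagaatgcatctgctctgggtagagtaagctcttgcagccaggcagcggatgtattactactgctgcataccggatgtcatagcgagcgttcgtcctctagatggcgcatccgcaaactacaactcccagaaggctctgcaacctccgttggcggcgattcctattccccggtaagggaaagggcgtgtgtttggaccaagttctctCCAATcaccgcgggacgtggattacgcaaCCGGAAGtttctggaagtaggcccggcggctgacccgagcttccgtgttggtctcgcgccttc
Sf3b3: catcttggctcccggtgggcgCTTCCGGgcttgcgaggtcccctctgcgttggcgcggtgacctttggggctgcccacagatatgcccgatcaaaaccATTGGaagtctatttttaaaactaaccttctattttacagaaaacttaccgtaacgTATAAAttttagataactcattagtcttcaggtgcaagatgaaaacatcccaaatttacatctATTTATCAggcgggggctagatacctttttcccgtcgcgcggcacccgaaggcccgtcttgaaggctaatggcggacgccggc
Hnrnpm: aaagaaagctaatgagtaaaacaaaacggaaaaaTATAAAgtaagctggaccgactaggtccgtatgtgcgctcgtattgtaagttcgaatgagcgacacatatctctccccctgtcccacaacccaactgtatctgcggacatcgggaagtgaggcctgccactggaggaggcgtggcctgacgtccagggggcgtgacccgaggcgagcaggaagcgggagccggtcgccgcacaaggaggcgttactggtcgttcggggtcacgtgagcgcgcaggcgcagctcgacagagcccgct
Hnrnpa0: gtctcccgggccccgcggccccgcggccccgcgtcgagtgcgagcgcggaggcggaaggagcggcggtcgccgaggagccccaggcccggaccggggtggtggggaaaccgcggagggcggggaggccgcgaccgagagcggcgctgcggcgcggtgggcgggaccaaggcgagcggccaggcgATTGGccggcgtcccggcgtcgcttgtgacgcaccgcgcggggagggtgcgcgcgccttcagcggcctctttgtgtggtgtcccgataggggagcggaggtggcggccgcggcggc

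The windows had unlike compositions. That of Hnrnpa0 had 79.7% G and C and 52 CpG pairs, whereas those of Snrpa and Sf3b3 had 13 and 20 CpG pairs. RefSeq windows were matched for 57 of the 67 members, and for each only the window nearest the annotated gene start was kept. The shares over genes tested and over all windows keep every window of a gene, so they are not built alike. The median GC content was 60.0% in these windows and 52.7% over all 32851 windows, and its part in the motif shares was not tested. CCGGAAG was in 19 of the 57 (33.3%), beside 16.0% of 13615 windows of genes tested and 8.86% of all 32851 windows. Of 7 matched SF3 genes, 6 held it, Sf3b2 and Sf3b3 among them. The HOX and PBX letters were in 2 of the 57 windows (3.51%), those of Sf3b3 and Prpf8, beside 4.46% of windows of genes tested and 8.85% of all windows. CCAAT was in 27 windows (47.4%; 37.4% of windows of genes tested and of all windows), TATAAA in 6 (10.5%; 7.51% and 13.6%) and GCGCATGC in 2 (3.51%; 4.88% and 2.71%). In 2 of the 57 windows matches overlapped each other.

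**Figure D1:**
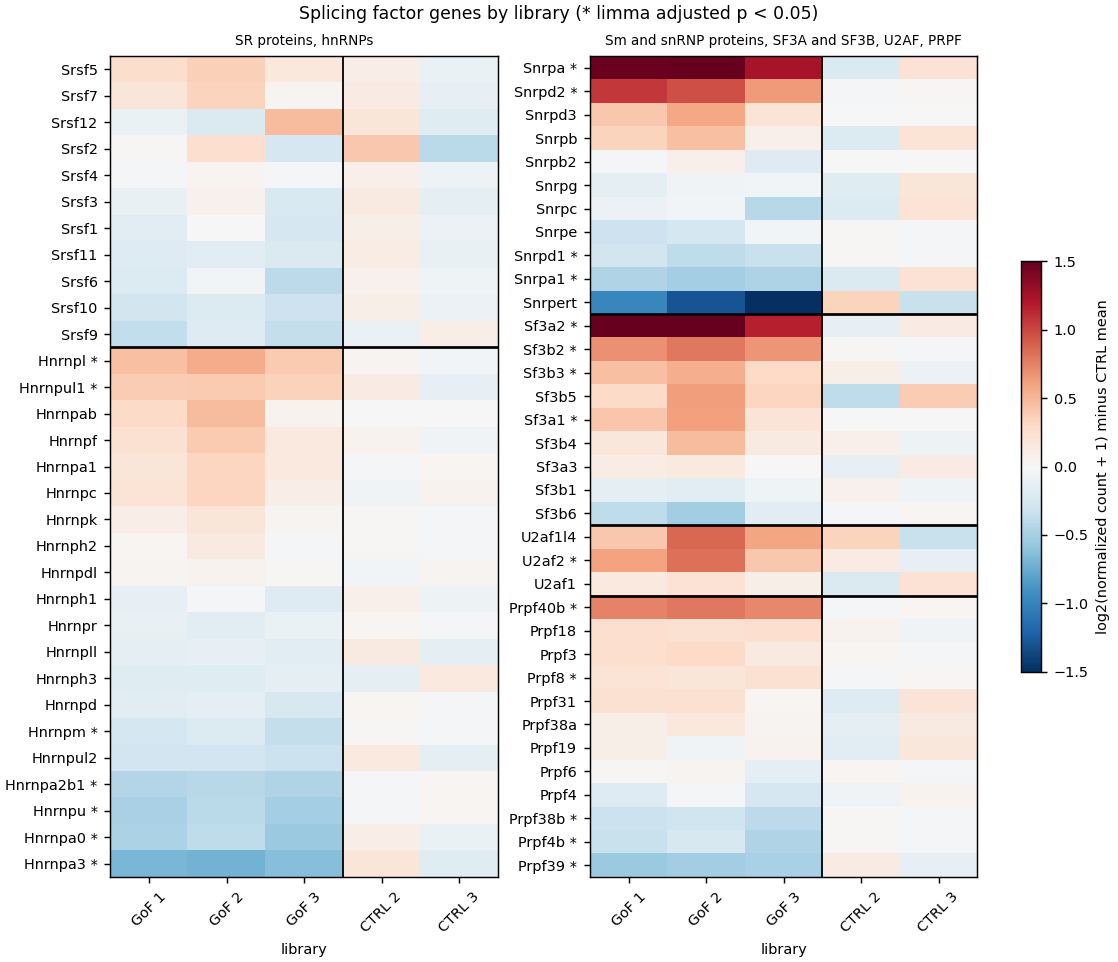
Each row is 1 of 66 members and each column a library (GoF replicates 1 to 3, then CTRL replicates 2 and 3). Colour gives log2(normalized count + 1) minus the CTRL mean, with the scale ending at 1.5 in either direction, members are grouped by kind and ordered by fold change, and stars mark a limma adjusted p under 0.05. Snrpa and Sf3a2 are the darkest red rows, Hnrnpa3 is the darkest blue row among the hnRNPs, and the SR protein rows show no star.

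Snrp genes differed among themselves, and the A proteins of U1 and U2 went opposite ways. Snrpa encodes the A protein of U1, which binds a loop of U1 RNA, and lies at chromosome 7, 27187005 to 27196271. It had 912.6, 991.6 and 771.0 normalized counts in GoF, against 281.4 and 380.6 in CTRL. The groups did not overlap and lay far apart. Snrpa rose 2.70-fold (log2 fold change 1.44, SE 0.17, limma adjusted p = 0.00395), and after GC trend removal its log2 fold change was 1.27 (SE 0.16, limma adjusted p = 0.00993). Its longest annotated transcript is a retained-intron form of 51.3% GC. By the longest protein-coding transcript the log2 fold change was 0.88 (limma adjusted p = 0.0165), the lowest over the 20 alternatives. Another gene's exons cover 19.3% of the Snrpa transcript, and how shared bases were counted is unknown from the sources.

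Snrpa1 encodes the A′ protein of the U2 particle. It had 893.1, 857.4 and 887.5 normalized counts in GoF, against 1052.9 and 1416.3 in CTRL, so all GoF values were below both CTRL values, though the controls lay far apart. Snrpa1 fell to 0.720 of the CTRL level (log2 fold change -0.47, SE 0.14, limma adjusted p = 0.0419), and the call was lost without GoF replicate 1 (limma adjusted p = 0.110) and after GC trend removal (0.244, but 0.0370 by the coding transcript). Snrpb2, whose product pairs with the A′ protein, is the Snrp gene with the most counts. It had 1365.8, 1467.2 and 1212.8 normalized counts in GoF, against 1390.6 and 1387.6 in CTRL and did not pass (limma adjusted p = 0.776). Its GoF values lay on both sides of the controls.

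The Sm proteins form the ring on which most spliceosomal snRNPs are built. Snrpd2, for SmD2, had 178.4, 168.2 and 133.5 normalized counts in GoF, against 84.4 and 86.1 in CTRL. It rose 1.85-fold (log2 fold change 0.89, SE 0.22, limma adjusted p = 0.0256), with no overlap between the groups. Snrpd1, for SmD1, fell (log2 fold change -0.33, SE 0.10, limma adjusted p = 0.0438), with 1001.8, 930.2 and 966.8 normalized counts in GoF, against 1229.9 and 1203.0 in CTRL. With the GC trend removed, neither passed (limma adjusted p = 0.0988 for Snrpd2 and 0.535 for Snrpd1), nor did they without GoF replicate 1 (0.155 and 0.185). Snrpd3, Snrpb, Snrpe and Snrpg, the other Sm genes measured, did not pass and had log2 fold changes of 0.40, 0.29, -0.21 and -0.08. Snrpert, annotated as a processed pseudogene, had 16.4, 12.9 and 7.3 normalized counts in GoF, against 42.2 and 26.2 in CTRL, and did not pass (limma adjusted p = 0.105). As such copies can share reads with their parent genes, its value is uncertain.

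SF3A and SF3B hold the U2 particle at the branch point. In this class 4 of 9 genes rose and 0 fell, while 5 did not pass, with a median log2 fold change of 0.41, and edgeR and DESeq2 also called 4. There were 2 calls after GC trend removal and 2 without GoF replicate 1. Sf3b2 (chromosome 19, 5273932 to 5295455), for an SF3B subunit that binds near the branch point, had 3584.8, 3861.4 and 3533.1 normalized counts in GoF, against 2260.6 and 2188.8 in CTRL. The values within each group lay close together and far from those of the other. Sf3b2 rose 1.64-fold (log2 fold change 0.72, SE 0.08, limma adjusted p = 0.00389) and passed without each of the 5 libraries in turn. Removing the GC trend left a log2 fold change of 0.34 (SE 0.08) at the edge of the threshold (limma adjusted p = 0.04999), and by the coding transcript it was 0.36 (limma adjusted p = 0.0360).

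Sf3a2, for an SF3A subunit, had 389.7, 414.9 and 309.1 normalized counts in GoF, against 125.5 and 149.7 in CTRL. Its groups lay far apart, and it rose 2.68-fold (log2 fold change 1.42, SE 0.19, limma adjusted p = 0.00492). Its transcript had the highest GC content of the members, 62.2%, and after GC trend removal its log2 fold change was 0.67 (SE 0.16, limma adjusted p = 0.0533, and 0.0417 by the coding transcript). Exons of the neighbouring gene Plekhj1 cover 19.4% of the transcript. Sf3b3 (chromosome 8, 110810239 to 110846787), for a scaffold subunit of SF3B, rose 1.35-fold, with 6433.4, 6869.5 and 5763.6 normalized counts in GoF, against 4994.8 and 4420.0 in CTRL (log2 fold change 0.43, SE 0.10, limma adjusted p = 0.0214). Without GoF replicate 1 its limma adjusted p was 0.0723, and after GC trend removal it was 0.0498 at a log2 fold change of 0.40.

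Sf3a1, for another SF3A subunit, rose 1.33-fold, with 3140.8, 3612.3 and 2690.9 normalized counts in GoF, against 2342.6 and 2363.5 in CTRL (limma adjusted p = 0.0477; 0.116 without GoF replicate 1, 0.129 after GC trend removal and 0.109 by the coding transcript). Its groups did not overlap. Sf3b1, the subunit that contacts the branch point and the SF3 gene with the most counts, had 17761.0, 17467.0 and 18815.1 normalized counts in GoF, against 20591.3 and 18786.8 in CTRL. The groups overlapped, and it did not pass (log2 fold change -0.13, limma adjusted p = 0.239; log2 fold change 0.15 after GC trend removal).

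**Figure D2:**
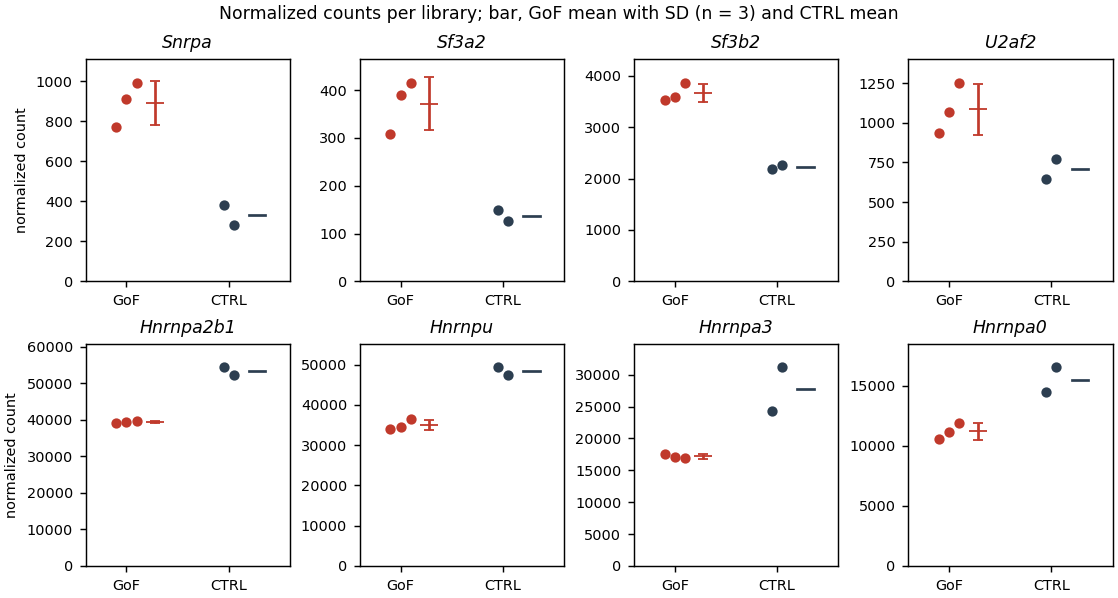
Points are normalized counts per library on a linear axis from 0 for 8 members (GoF left, CTRL right). The bars beside them give the GoF mean with its SD (n = 3) and the CTRL mean. Snrpa, Sf3a2, Sf3b2 and U2af2 are higher in all 3 GoF libraries than in both controls, and Hnrnpa2b1, Hnrnpu, Hnrnpa3 and Hnrnpa0 are lower in all 3.

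U2AF binds the downstream end of the intron as a pair of subunits. U2af2, the large subunit, had 1069.5, 1251.3 and 933.6 normalized counts in GoF, against 770.3 and 646.4 in CTRL. It rose 1.53-fold (log2 fold change 0.61, SE 0.15, limma adjusted p = 0.0252), with no overlap between the groups. The call was lost without GoF replicate 1 (limma adjusted p = 0.0637) and after GC trend removal (0.284). U2af1, the small subunit, had 389.7, 410.9 and 377.0 normalized counts in GoF, against 304.8 and 409.3 in CTRL, and its groups overlapped (limma adjusted p = 0.524). U2af1l4, a related gene, had 88.2, 121.3 and 101.1 normalized counts in GoF, against 84.4 and 52.4 in CTRL and did not pass (log2 fold change 0.62, limma adjusted p = 0.154). Exons of other genes cover 97.4% of its transcript, so its value is uncertain.

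Among the 13 Prpf genes, 2 were called higher and 4 lower (1 and 0 after GC trend removal). Prpf39 encodes a U1-associated protein and had 3704.8, 3814.5 and 3908.5 normalized counts in GoF, against 5973.9 and 5001.5 in CTRL. The GoF libraries lay close together below controls that differed from each other. Prpf39 fell to 0.697 of the CTRL level (log2 fold change -0.52, SE 0.10, limma adjusted p = 0.0107) and passed without each of the 5 libraries in turn. Exons of another gene cover 13.9% of its transcript. Prpf38b, related to the spliceosome activator Prpf38a, fell to 0.790 (limma adjusted p = 0.0155, and 0.0876 without GoF replicate 1), with 8923.0, 9090.6 and 8528.9 normalized counts in GoF, against 11350.9 and 11053.7 in CTRL. Prpf4b, a kinase of the spliceosome, fell to 0.789 (limma adjusted p = 0.0254, and 0.0987 without GoF replicate 1), with 8533.4, 9096.3 and 7838.8 normalized counts in GoF, against 10910.1 and 10569.5 in CTRL. The groups of both did not overlap.

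The transcripts of Prpf39, Prpf38b and Prpf4b had GC contents of 37.6%, 38.8% and 40.8%. After GC trend removal their log2 fold changes were -0.05 for Prpf39, 0.07 for Prpf38b and -0.02 for Prpf4b, none past the threshold (limma adjusted p from 0.609 to 0.922). By the coding transcript Prpf38b passed (log2 fold change -0.27, limma adjusted p = 0.0332). Prpf40b, for a protein related to a yeast U1 component, rose 1.68-fold, with 406.1, 418.2 and 397.2 normalized counts in GoF, against 235.7 and 247.1 in CTRL (log2 fold change 0.75, SE 0.14, limma adjusted p = 0.0107). Its groups were tight and apart, its transcript had 57.0% GC, and it did not pass after GC trend removal (log2 fold change 0.21, limma adjusted p = 0.331) or without GoF replicate 1 (0.0646). Prpf8, the large protein at the catalytic centre and the Prpf gene with the most counts, had 19410.9, 19101.6 and 19697.8 normalized counts in GoF, against 16622.5 and 16934.9 in CTRL. The difference was small but the groups did not overlap (log2 fold change 0.21, SE 0.06, limma adjusted p = 0.0496), and the call was lost without GoF replicate 1 (0.263) and with the GC trend removed (0.789).

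The hnRNPs package nascent transcripts and influence exon choice. Per kilobase of the longest transcript, Hnrnpa2b1 had the highest level of all members, 10819 normalized counts per kb in GoF and 14638 in CTRL on average. It had 39451.3, 39825.8 and 39025.9 normalized counts in GoF, against 52342.5 and 54371.3 in CTRL, and both groups were tight and well apart. Hnrnpa2b1 fell to 0.739 of the CTRL level (log2 fold change -0.44, SE 0.06, limma adjusted p = 0.00533). Hnrnpu, which encodes a scaffold attachment protein that binds RNA and chromatin, had 34600.1, 36473.2 and 34014.7 normalized counts in GoF, against 47529.4 and 49298.7 in CTRL. It fell to 0.723 (log2 fold change -0.47, SE 0.07, limma adjusted p = 0.00533), again with tight groups.

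Hnrnpa3, a close relative of Hnrnpa2b1, had 17151.9, 16861.2 and 17612.9 normalized counts in GoF, against 31132.1 and 24338.6 in CTRL. It fell to 0.625, the lowest ratio among the called members (log2 fold change -0.68, SE 0.10, limma adjusted p = 0.00676). Hnrnpa2b1, Hnrnpu and Hnrnpa3 passed without each of the 5 libraries in turn, and had GC contents of 43.6%, 40.9% and 39.9%. After GC trend removal their log2 fold changes were -0.22, -0.14 and -0.32 (limma adjusted p = 0.0713, 0.255 and 0.0539). By the coding transcript, Hnrnpa2b1 and Hnrnpa3 passed (limma adjusted p = 0.0488 and 0.0234) and Hnrnpu did not (0.177).

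Hnrnpa0 belongs to the same subfamily, and its annotated transcript has 1 exon (chromosome 13, 58125879 to 58128556). It had 11156.4, 11901.3 and 10521.6 normalized counts in GoF, against 16500.5 and 14479.1 in CTRL, with no overlap. Hnrnpa0 fell to 0.723 of the CTRL level (log2 fold change -0.47, SE 0.09, limma adjusted p = 0.0113). Among the 8 members with a GC content of 54% or more it was the 1 called lower, while 4 were called higher. Of all 3449 genes in that range, 1187 were called higher and 24 lower. After GC trend removal the log2 fold change of Hnrnpa0 was -0.91 (SE 0.10, limma adjusted p = 0.00746), and over the 20 alternatives it ranged from -0.91 to -0.23. Hnrnpm, an exon-choice regulator (chromosome 17, 33646233 to 33686860), had 7625.9, 7956.6 and 7163.3 normalized counts in GoF, against 9263.9 and 9065.8 in CTRL. It fell to 0.827 (log2 fold change -0.27, SE 0.08, limma adjusted p = 0.0374; 0.0405 after GC trend removal and 0.170 without GoF replicate 1). Exons of another gene cover 29.7% of the Hnrnpm transcript.

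Of the hnRNP genes, 2 rose. Hnrnpl, whose product binds CA-rich RNA, had 4212.3, 4529.5 and 4057.4 normalized counts in GoF, against 3170.4 and 3004.9 in CTRL. It rose 1.38-fold (log2 fold change 0.47, SE 0.08, limma adjusted p = 0.0107) and passed without each of the 5 libraries in turn. Hnrnpul1, a relative of Hnrnpu, rose 1.29-fold (limma adjusted p = 0.0217, and 0.0859 without GoF replicate 1), with 10700.1, 10788.4 and 10495.7 normalized counts in GoF, against 8947.3 and 7599.6 in CTRL. Both genes had groups that did not overlap, and after GC trend removal the log2 fold changes were 0.10 for Hnrnpl and 0.02 for Hnrnpul1 (limma adjusted p = 0.467 and 0.920). Hnrnpul2, a further relative, just missed the threshold at a limma adjusted p of 0.0541, with 9073.8, 9092.2 and 8892.2 normalized counts in GoF, against 12271.3 and 10030.4 in CTRL.

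In the SR family the groups overlapped for 7 of 11 genes. In the rest, 1 gene was higher in every GoF library than in both controls and 3 were lower. These are 9.09% and 27.3% of the family, beside 27.3% and 27.6% of all genes tested. Srsf3, the SR gene with the most counts and a factor in splicing and mRNA export, had 14072.6, 15945.5 and 12984.4 normalized counts in GoF, against 16677.6 and 13865.2 in CTRL, and did not pass (log2 fold change -0.09, limma adjusted p = 0.577). Srsf2, named after its values were seen, had 9441.9, 11157.2 and 7872.0 normalized counts in GoF, against 12338.2 and 7085.4 in CTRL. Its controls enclosed all 3 GoF values, and exons of other genes cover 39.4% of its transcript. Srsf10, for an SR protein that represses splicing when dephosphorylated, just missed the threshold (log2 fold change -0.27, SE 0.08, limma adjusted p = 0.0528), with 7576.7, 7946.1 and 7359.9 normalized counts in GoF, against 9741.1 and 8617.8 in CTRL. Srsf9 had the largest SR difference (log2 fold change -0.31, SE 0.15, limma adjusted p = 0.158), with 318.9, 360.7 and 321.2 normalized counts in GoF, against 384.6 and 441.7 in CTRL. By the coding transcript's GC content Srsf9 passed as lower, at a log2 fold change of -0.79 (limma adjusted p = 0.0169).

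Srsf5 and Srsf7, of 40.1% and 41.6% GC, passed once the GC trend was removed, at log2 fold changes of 0.61 (SE 0.09) and 0.47 (SE 0.11) and limma adjusted p of 0.0161 and 0.0447. Before that removal, Srsf5 had 10152.5, 10897.5 and 9468.2 normalized counts in GoF, against 9064.6 and 7934.0 in CTRL, with no overlap, and Srsf7 had 7742.8, 8602.9 and 7020.9 normalized counts in GoF, against 7487.5 and 6269.3 in CTRL, with overlap.

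Across the 67 members the log2 fold change followed GC content (Spearman rho = 0.59, Pearson r = 0.62, a description across genes that share the same libraries), and across 16266 genes the values were 0.56 and 0.50. Of 19 members below 42% GC, 6 fell and 0 rose, beside 834 lower and 10 higher of 2755 genes in that range. Of 11 members from 50% to under 54%, 6 rose and 0 fell, beside 524 higher and 80 lower of 3166 genes. After GC trend removal the rho over members was -0.10, and the members called higher also included Srsf5, Srsf7, Hnrnpa1, Hnrnpc, Hnrnpk, Hnrnph1 and Prpf18, which had not passed before. Of these 7, Hnrnph1 did not pass by the coding transcript's GC content (limma adjusted p = 0.749). The median log2 fold change of the members was then 0.10, beside 0.0022 over all genes.

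**Figure D3:**
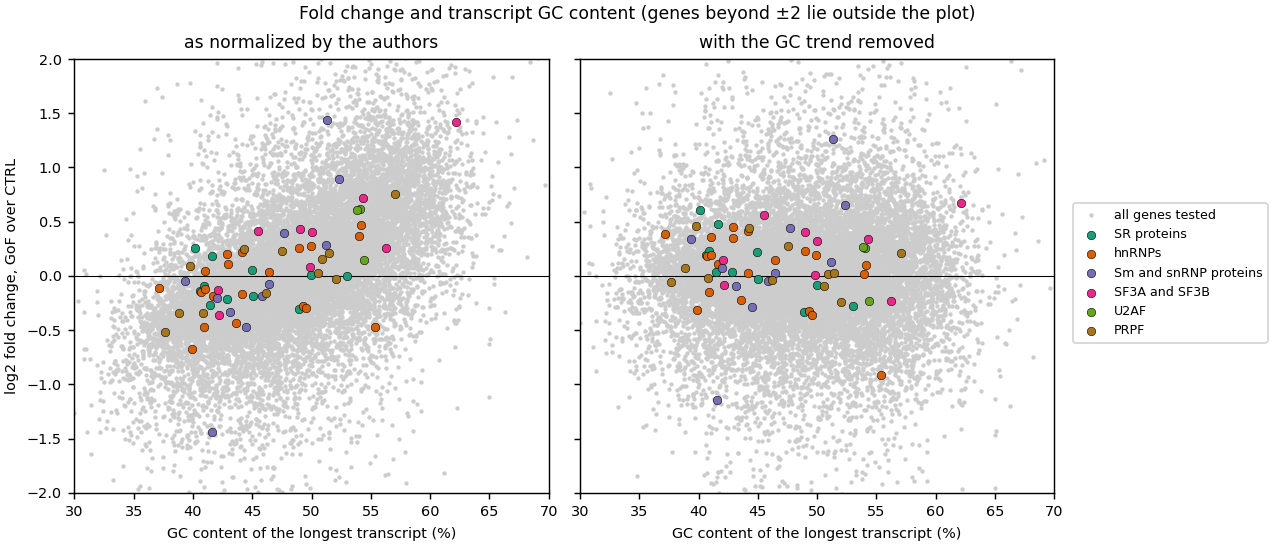
Each point is a gene, with GC content in percent (longest transcript) on the horizontal axis and the log2 fold change of GoF over CTRL on the vertical axis. The 66 members shown are coloured by kind over all genes tested in grey, as normalized by the authors (left) and after GC trend removal (right). On the left, members of higher GC content tend to lie higher, while Hnrnpa0 at 55.4% GC lies at -0.47 there and at -0.91 on the right.

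**Figure D4:**
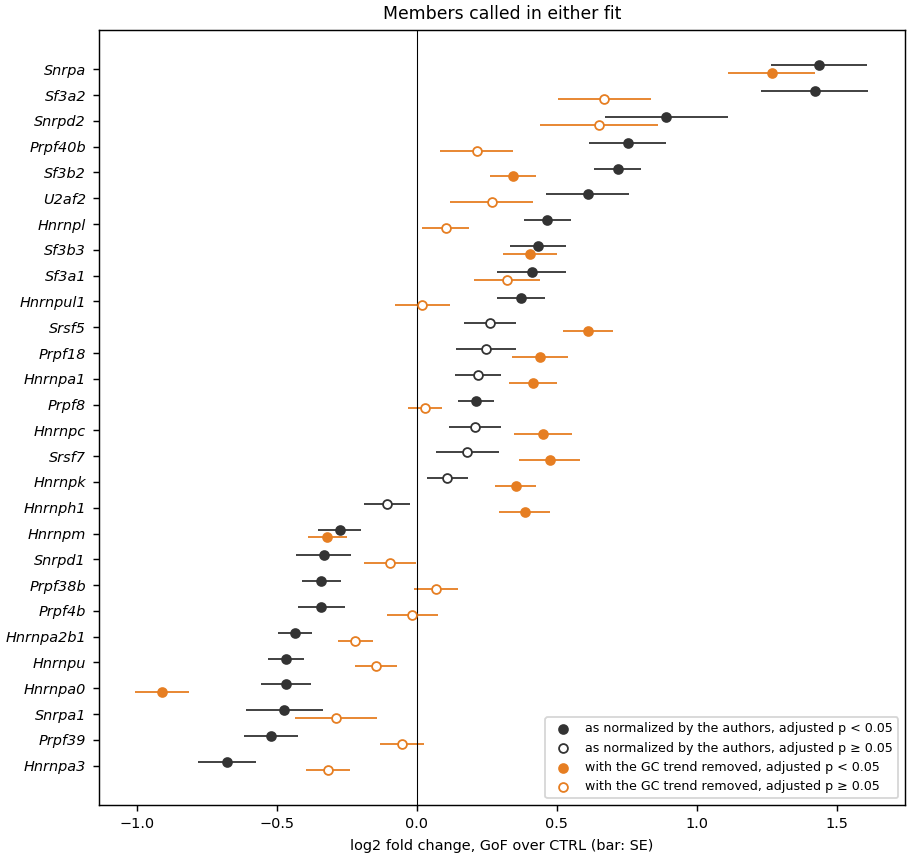
Members called in either of the fits, 1 of them not shown, with the log2 fold change of GoF over CTRL and its SE as normalized by the authors (black) and with the GC trend removed (orange). Filled points have a limma adjusted p under 0.05. Snrpa, Sf3b2, Sf3b3, Hnrnpm and Hnrnpa0 are filled in both colours.

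Libraries of the same group also differed along these genes. In 53 of 67 members (79.1%) GoF replicate 2 was above GoF replicate 3, with a median log2 difference of 0.15, beside 51.6% and 0.01 over all genes tested. This held for 10 of 11 SR genes and 17 of 20 hnRNP genes. GoF replicate 1 lay between the other two in 54 members (80.6%; 62.9% of all genes tested), 20 of 20 hnRNP genes among them. CTRL replicate 2 was above CTRL replicate 3 in 40 members (59.7%; 50.7% of all genes tested) and in 10 of 11 SR genes. Of all members, 22 were higher in every GoF library than in both controls (32.8%; 27.3% of all genes tested) and 20 lower (29.9%; 27.6%).

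The other splicing genes were a list of 115 in 7 groups, all measured. Of them 20 rose, 21 fell and 74 did not pass, which is 35.7% called, against 23.2% of all genes tested, with a median log2 fold change of 0.01. After GC trend removal 7 were higher and 4 lower, beside 3.11% and 3.33% of all genes. In the exon junction complex and coactivator group, 5 of 12 rose and 3 fell (2 and 2 after GC trend removal). Rbm8a, whose product is a core part of the complex left at spliced junctions, had 678.8, 766.8 and 572.0 normalized counts in GoF, against 293.1 and 401.8 in CTRL. It rose 1.94-fold (log2 fold change 0.96, SE 0.18, limma adjusted p = 0.0118; log2 fold change 1.16 and adjusted p = 0.0217 after GC trend removal). Eif4a3, the helicase of the same complex, rose 1.61-fold (limma adjusted p = 0.00684; 0.0713 after GC trend removal). Son, a large RS-domain protein of nuclear speckles, had 17159.1, 17725.0 and 17347.5 normalized counts in GoF, against 23182.6 and 22488.0 in CTRL, with no overlap. It fell to 0.762 (limma adjusted p = 0.00807; 0.0170 after GC trend removal and 0.0523 without GoF replicate 1). Tra2b, a coactivator with RS domains, fell to 0.756 (limma adjusted p = 0.0125; 0.852 after GC trend removal).

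Among 38 regulators tied to tissue or position, 6 rose and 12 fell, beside 12.2% and 10.9% of all genes, and after GC trend removal 3 were higher and 2 lower (median log2 fold change 0.06, against -0.10 before it). Ptbp1, the polypyrimidine tract binding repressor, had 8285.2, 9164.2 and 7378.5 normalized counts in GoF, against 4437.9 and 4559.7 in CTRL, with the groups far apart. It rose 1.83-fold (log2 fold change 0.87, SE 0.10, limma adjusted p = 0.00389; log2 fold change 0.54 and adjusted p = 0.0190 after GC trend removal). Rbm38 rose 2.62-fold, with 222.5, 242.7 and 178.0 normalized counts in GoF, against 76.2 and 84.9 in CTRL (limma adjusted p = 0.00690; 0.0772 after GC trend removal). Rbm25 and the neuronal regulator gene Nova1 fell to 0.670 and 0.679 (limma adjusted p = 0.00389 and 0.00876), and neither passed after GC trend removal (0.315 and 0.480).

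Kinases of SR proteins and their import genes gave 2 higher, 2 lower and 5 not passed (2 higher and 0 lower after GC trend removal). Clk3 rose 1.86-fold, with 397.9, 384.2 and 377.0 normalized counts in GoF, against 182.9 and 235.8 in CTRL (limma adjusted p = 0.0109; 0.0488 after GC trend removal), and Clk2 rose 1.27-fold (0.0323; 0.490). Srpk2 and Clk4 fell to 0.799 and 0.823 (limma adjusted p = 0.0336 and 0.0480), and both had log2 fold changes above 0 after GC trend removal. In nonsense-mediated decay, which destroys unproductive transcripts, 2 of 10 genes rose and 3 fell. Upf1 rose 1.78-fold and Smg5 1.47-fold (limma adjusted p = 0.0104 and 0.0175), and Upf3b and Smg1 fell to 0.716 and 0.813 (0.0180 and 0.0241). These 4 did not pass after GC trend removal (limma adjusted p from 0.148 to 0.793). In the remaining groups, 1 of 7 Sm-like ring genes rose (Lsm4, limma adjusted p = 0.0333), 4 of 19 other snRNP proteins and helicases rose (Ddx39b and Snrnp70 at 0.0216 and 0.0252), and 1 of 20 catalytic-step genes fell (Bcas2, 0.0251). Lsm4, Ddx39b, Snrnp70 and Bcas2 did not pass after GC trend removal.

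GENCODE M21 lists at least 1 transcript that is a target of nonsense-mediated decay for 34 of the 67 members (50.7%) and for 28.1% of 12777 tested protein-coding genes. Such a transcript is listed for 9 of 11 SR genes and 10 of 20 hnRNP genes. Retained-intron transcripts are listed for 50 members (74.6%; 58.1% of tested protein-coding genes).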

How the data were processed

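Total RNA of the dissected region was amplified from random and poly-T primers before sequencing, per the labels' protocols. Alignment with STAR 2.5.2 to mm10, HTSeq and DESeq2 are named in the submitters' processing notes; the annotation and strand setting are not given. The authors' deposited table gives a signal per gene and library, called normalized count here, which is a read count divided by 1 size factor (100% of values within 0.001 of a whole read), with the authors' log2 fold change, test score and p-value. R 4.3.3 and limma 3.58.1 (trend, robust, no covariates) fitted log2(normalized count + 1) of all genes averaging 10 or more, with p adjusted over all of them. Recovered reads were also tested with edgeR 4.0.16 and DESeq2 1.42.0. A lowess trend (span 0.3) on GC content or length, from GENCODE M21 (GRCm38, the same as mm10), was removed in alternatives, matched by symbol for 96.9% of genes and all 67 members; 19 members have a longest transcript that is not protein-coding, so the coding transcript's GC content was added as an alternative after seeing the data. Fits were tested on simulated counts. The reads carry no molecular identifiers, so no counting intervals are given; depth per library was 34260116 to 44384354 reads.

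The members and gene lists were chosen with earlier results of these data known. Named members are the up to 10 with the lowest adjusted p in each direction, the member of each kind with the most counts and with the largest change, and those nearest the threshold; in each other list, up to 2 a direction with the lowest adjusted p. Snrpd1, the other Sm genes, U2af1, Srsf2 and the 7 further members called with the GC trend removed were named after their values were seen. Exons of other genes cover over 10% of the transcript in 10 members. All counts cover the 67 members, and the values of 1 of them are not reported here.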

Additional observations from a re-analysis of the deposited data

How the results depend on the processing

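Under filters on the mean, pseudocounts, TMM with or without mitochondrial genes, edgeR, DESeq2 and the length trend, the count of members called stayed within 1.5 times of 22. Quantile normalization gave 16 higher and 7 lower, beside 1875 and 1650 of all genes. With the GC trend removed 12 members were called (2 lower), as were 11 of the other 115 splicing genes and 1048 of all genes, against 41 and 3889; with the coding transcript's GC content, 7 members were lower, 9 other splicing genes were called and 1183 of all genes. Leaving out GoF replicate 1 on top of GC trend removal, 3 members (2 higher, 1 lower), 1 other gene and 130 of all genes were called. Leaving out 1 library at a time gave 9 to 24 members (4 to 12 higher, 5 to 15 lower), 14 to 53 other splicing genes and 1241 to 5271 of all genes. The low ends are without GoF replicate 1; without GoF replicate 2 there were 12 members, 16 other splicing genes and 1737 of all genes, and without GoF replicate 3 there were 6 members lower and 2563 of all genes called. The labels' replicate numbers are shared by 2 pairs, whose deviations from the group means correlated at 0.0068 and 0.0025. As the deviations of 2 CTRL libraries mirror each other, these values are not separate checks and cannot decide whether the numbers mark pairs. The main fit did not take them as pairs. A fit with the replicate number as a block called 10 members (5 higher, 5 lower), 14 other splicing genes and 1371 of all genes, and with the GC trend also removed 3 members (2 higher, 1 lower), 0 other splicing genes and 163 of all genes.

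Of 978 values of 49 named genes over the alternatives, 710 kept direction and side of the threshold, 221 were no longer past it, 9 newly passed and 38 changed sign. The log2 fold changes whose sign turned with GC trend removal were 0.068 for Prpf38b, 0.15 for Sf3b1, 0.34 for Snrpb2, 0.036 for Srsf10, 0.23 for Srsf3, -0.18 for Snrnp70, -0.099 for Clk2, 0.014 for Srpk2 and 0.13 for Clk4. Leaving out GoF replicate 1 as well gave 0.060 for Prpf38b, 0.16 for Sf3b1, 0.32 for Snrpb2, 0.039 for Srsf10, 0.24 for Srsf3, -0.18 for Snrnp70, -0.12 for Clk2, 0.010 for Srpk2 and 0.12 for Clk4, and the replicate block as well gave 0.060 for Prpf38b, 0.16 for Sf3b1, 0.32 for Snrpb2, 0.039 for Srsf10, 0.24 for Srsf3, -0.18 for Snrnp70, -0.12 for Clk2, 0.010 for Srpk2 and 0.12 for Clk4. By the coding transcript's GC content they were 0.13 for Sf3b1, 0.30 for Snrpb2, 0.011 for Srsf10, 0.23 for Srsf3, -0.24 for Snrnp70 and -0.13 for Clk2. Quantile normalization gave 0.15 for Sf3b1 and 0.16 for Srsf3, and length trend removal gave 0.0098 for Smg1. Leaving out 1 library at a time gave -0.22 to 0.043 for Srsf3 and -0.11 to 0.027 for Snrpb2. The causes were not tested.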
